A study of Capra hircus with 8 samples.

Results

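KRT5, KRT14, KRT6A, KRT19 and KRT4 are keratins of the outer root sheath, the interfollicular basal layer and inducible or mucosal epithelium. They were selected by name: 8 keratin symbols were listed (KRT4, KRT5, KRT6A, KRT14, KRT15, KRT17, KRT19 and KRT75), and a gene was taken where the symbol in the first count table equalled a listed one. This gave 5 of the 8, out of 18815 genes in the table. KRT15, KRT17 and KRT75 were not matched by symbol and were not analysed here. All 5 genes passed the filter on low counts, which left 14085 genes tested.

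Keratins form the intermediate filaments of epithelial cells, and each filament is built from pairs of a type I and a type II chain. KRT5 (type II) and KRT14 (type I) are the pair of the dividing basal keratinocyte, and both continue into the outer root sheath, the epithelial layer that encloses the hair follicle and joins the surface epidermis. KRT6A is a type II keratin of the outer root sheath and of the companion layer next to it, and it is induced in the epidermis after wounding or in hyperproliferation. KRT19 is a type I keratin of simple and ductal epithelia that also marks cells of the outer root sheath around the follicle bulge. KRT4 is a type II keratin best known from the suprabasal layers of mucosal epithelium, where it pairs with KRT13.

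RNA was sequenced from the skin of Capra hircus, of the cashmere breed, kept for its downy underwool, and of a milk breed. Sampling was at months 3, 6, 9 and 12, and each combination of month and breed has a single library, 4 a breed and 8 altogether. The labels give the month as an age while the design text speaks of different months, and embryos are mentioned in the extraction text although skin is the tissue given. No treatment or allele is given for either breed, and the labels do not say how many animals went into a library. Every p-value therefore measures only the spread between these libraries, which may be technical, and in bulk tissue fewer cells of a type and less RNA per cell cannot be told apart.

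Library totals were 7480053 to 8718429 reads in cashmere goats and 11333734 to 13899750 in milk goats. On the first principal component of all tested genes (48.7% of the variance) the month 12 and 3 milk libraries lay apart from the others, at -70.9 and -51.8. The labelled tissue was checked on suprabasal epidermal markers, of which 7 of 8 were listed, with summed levels of 13900 to 20800 CPM (reads relative to the scaled library size) in cashmere goats and 20400 to 40200 in milk goats. Skeletal muscle markers summed to at most 3.31 CPM except in the month 12 milk library, at 53.8 CPM.

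Between the breeds, 0 of the 5 keratins passed an adjusted p of 0.05, against 4.79% of all genes tested (675 genes, 207 higher and 468 lower in cashmere goats). This was edgeR's quasi-likelihood test with Benjamini-Hochberg adjustment over all genes, in a model of month and breed. The 675 genes became 0 to 4 when any one of the 6 libraries of months 3, 6 and 9 was left out, and 743 or 869 without a library of month 12. At an unadjusted p under 0.05, 3786 genes and 1 of the 5 keratins, KRT6A, were counted. All 5 fitted log2 fold changes were above 0, with a median of 0.35 against 0.03 over all genes tested. How many keratins separated the breeds depended on the scale. In CPM, KRT6A alone of the 5 was higher in cashmere goats in 4 of 4 months, as 19.6% of all tested genes were. With library totals, KRT5, KRT6A and KRT14 were (26.3% of genes), and in FPKM, relative to gene length and library size, KRT5, KRT6A, KRT14 and KRT19 were (33.9% of genes). In CPM and with library totals the ranges of the breeds overlapped for each of the 5, where 6.46% and 12% of genes had every cashmere library above every milk library. In FPKM the ranges did not overlap for KRT5 and KRT14, as for 17.1% of genes, and overlapped for the other 3.

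KRT5 and KRT14 were among the most abundant transcripts of the skin in every library. Per length, in the deposited FPKM, KRT5 ranked 3 to 6 among all genes in cashmere goats and 6 to 9 in milk goats, and KRT14 ranked 3 to 5 and 7 to 9. KRT5 stood at 1920, 2270, 2460 and 2420 FPKM in the 4 cashmere libraries, in order of month, and at 1460, 1840, 1820 and 1820 FPKM in milk goats. KRT14 stood at 2000, 2380, 2200 and 2040 FPKM in cashmere goats and at 1200, 1910, 1700 and 1820 FPKM in milk goats. Both were lowest at month 3 in each breed, and on this scale every cashmere library was above every milk library for both.

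On the CPM scale, normalised between libraries, KRT5 was at 7030, 8900, 9620 and 9730 in cashmere goats and at 5920, 7500, 9750 and 8420 in milk goats. Cashmere goats had the higher level at months 3, 6 and 12, while the month 9 libraries lay together. The means were 8820 ± 1250 CPM (SD, n = 4 months) and 7900 ± 1610 CPM, a log2 fold change of 0.17 ± 0.25 (SE, adjusted p = 0.694). KRT14 was at 5410, 6950, 6390 and 6100 CPM in cashmere goats and at 3610, 5780, 6780 and 6250 CPM in milk goats. Here cashmere goats were higher at months 3 and 6 and slightly lower at months 9 and 12. The fitted breed difference of KRT14 was 0.18 ± 0.25 on the log2 scale (adjusted p = 0.675).

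The sign of the small month 9 differences depended on the scaling of the libraries. The log2 ratios of cashmere to milk goats at month 9 were -0.02 for KRT5 and -0.09 for KRT14, where the milk goat library has a scaling factor of 0.7832. With library totals alone these ratios were 0.34 and 0.27, and as ratios of FPKM they were 0.43 and 0.37. At month 12 the ratio of KRT14 was -0.04, and 0.16 from FPKM.

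**Figure D1:**
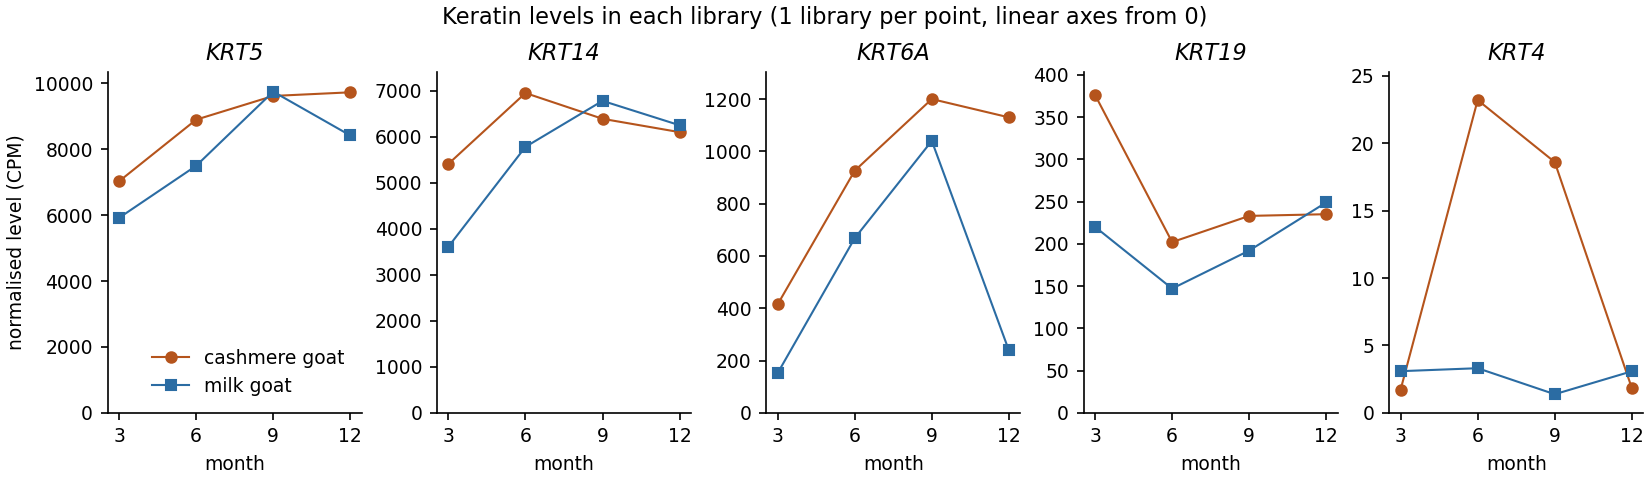
Normalised level (CPM, linear axes from 0) of KRT5, KRT14, KRT6A, KRT19 and KRT4 against month, with 1 point per library, cashmere goats as circles and milk goats as squares. KRT6A in milk goats goes from 1040 CPM at month 9 to 239 CPM at month 12 while cashmere goats stay at 1130 CPM, and KRT4 is above 18 CPM only in the month 6 and 9 cashmere libraries.

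KRT6A, the inducible keratin of the companion layer and outer root sheath, varied far more than the basal pair. Its cashmere levels were 415, 926, 1200 and 1130 CPM, in order of month. In milk goats it was at 152, 668, 1040 and 239 CPM. Both breeds had their lowest level at month 3 and their highest at month 9, and the breeds lay close at months 6 and 9 but apart at months 3 and 12. The ratios within a month of cashmere to milk goats were 2.74 at month 3 (95% counting interval 2.59 to 2.90), 1.39 at month 6, 1.15 at month 9 and 4.70 at month 12 (4.50 to 4.91). These intervals cover counting error only, since each ratio sets 1 library against 1.

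Over the 4 months the means of KRT6A were 917 ± 354 CPM (SD, n = 4) in cashmere goats and 526 ± 412 CPM in milk goats. The fitted difference was 2.12-fold (log2 1.08 ± 0.35 SE), with an adjusted p of 0.111 by edgeR's quasi-likelihood test. DESeq2 gave 1.07 with an adjusted p of 0.0105, in a fit that called 12.2% of its genes. On FPKM, limma gave 1.29 with a pseudocount of 1 (adjusted p = 0.0385, 9.76% of genes called) and 1.30 with a pseudocount of 0.1 (adjusted p = 0.0433, 8.24% called). The size rested on the outer months: without the month 12 cashmere library the difference was 0.70, without the month 12 milk library it was 0.68, and without both it was 0.70 (adjusted p = 0.148). A month left with 1 library is fitted exactly, so these values rest on the same libraries of the other months. Without the 4 libraries of months 3 and 12, it was 0.33 (adjusted p = 0.597).

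KRT19, the keratin of ductal epithelia and of the bulge region, was highest at month 3 in cashmere goats. It stood at 376, 202, 233 and 235 CPM in cashmere goats and at 220, 147, 192 and 249 CPM in milk goats. Cashmere goats were higher at months 3, 6 and 9, by 1.71-fold, 1.37-fold and 1.22-fold, and the log2 ratio at month 12 was -0.09 (0.11 from FPKM). The means were 261 ± 77.9 CPM and 202 ± 43.4 CPM (SD, n = 4), and the log2 difference of 0.35 ± 0.17 (SE) had an adjusted p of 0.237. KRT7 and KRT18, keratins of glands and ducts, were also highest in the month 3 cashmere library, at 86.4 and 32.3 CPM. KRT8, the third simple epithelial keratin tested, was at 68.5, 68.6, 81.9 and 71.1 CPM in cashmere goats, highest at month 9. Markers of sweat gland and duct, 5 of 6 listed, summed to 190, 191, 155 and 126 CPM in cashmere goats and to 86.6 to 145 CPM in milk goats. These markers include KRT7, KRT8 and KRT18 themselves, so the sum is not separate from the values of these keratins. Over the 8 libraries the log2 CPM of KRT19 and KRT7 had a Pearson r of 0.77 (Spearman 0.60), which was 0.16 without the 2 libraries farthest from the median. With KRT18 r was 0.56 (Spearman 0.29, -0.03 without these) and with KRT8 0.55 (0.38, 0.01 without these). The part of gland or duct cells in the KRT19 values was not tested.

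KRT4 was a low-abundance transcript that stood out in 2 libraries. Its reads numbered 15, 193, 162 and 14 in the cashmere libraries, in order of month, and 38, 43, 15 and 35 in the milk libraries. As CPM these are 1.72, 23.2, 18.6 and 1.84 in cashmere goats and 3.09, 3.31, 1.38 and 3.08 in milk goats, where 3 reads stand for 0.231 to 0.395 CPM. The cashmere goat libraries of months 6 and 9 lay above all others, and the other 6 lay between 1.38 and 3.31 CPM. Cashmere goats were 7.02-fold higher at month 6 (95% counting interval 5.02 to 10.0) and 13.5-fold higher at month 9 (7.92 to 24.6). The log2 ratios at months 3 and 12 were -0.85 and -0.74, with counting intervals of -1.82 to 0.05 and -1.75 to 0.19.

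Averaged over months, the breed difference of KRT4 was 1.44 ± 0.82 on the log2 scale (SE, adjusted p = 0.298), with means of 11.3 ± 11.2 and 2.72 ± 0.898 CPM (SD, n = 4). Its size depended on which libraries entered. It was 0.70 without the month 6 cashmere library and 0.61 without that of month 9, and 0.71 and 0.66 without the milk goat libraries of these months. Leaving out either library of a month takes that month out of the breed estimate, so the cashmere and milk values of a month are not separate results. In the 4 libraries of months 6 and 9 alone, a set chosen after seeing the data, the difference was 3.19. That fit has 1 residual degree of freedom and called 9.41% of genes. KRT4 passed in it by edgeR, but the set keeps the 2 cashmere libraries in which KRT4 was high, so this is no test of the difference. Casein reads moved with KRT4 in 1 of the 2 high libraries: CSN2 and CSN3 had 68 and 67 reads in the month 6 cashmere library, but 1 and 3 reads in that of month 9. The mammary and oral mucosa markers summed to 0.132 to 16.4 CPM in cashmere goats and to 0 to 1.87 CPM in milk goats. Of the 5 markers of that list, KRT13 and MUC21 were not matched in the first table, and LALBA had 1 read in all. Fibroblast markers summed to 33400 CPM in the month 6 cashmere library and to 5140 CPM in that of month 9, while the other libraries ranged from 2250 to 19300 CPM. The part of these cells in the KRT4 values was not tested.

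**Figure D2:**
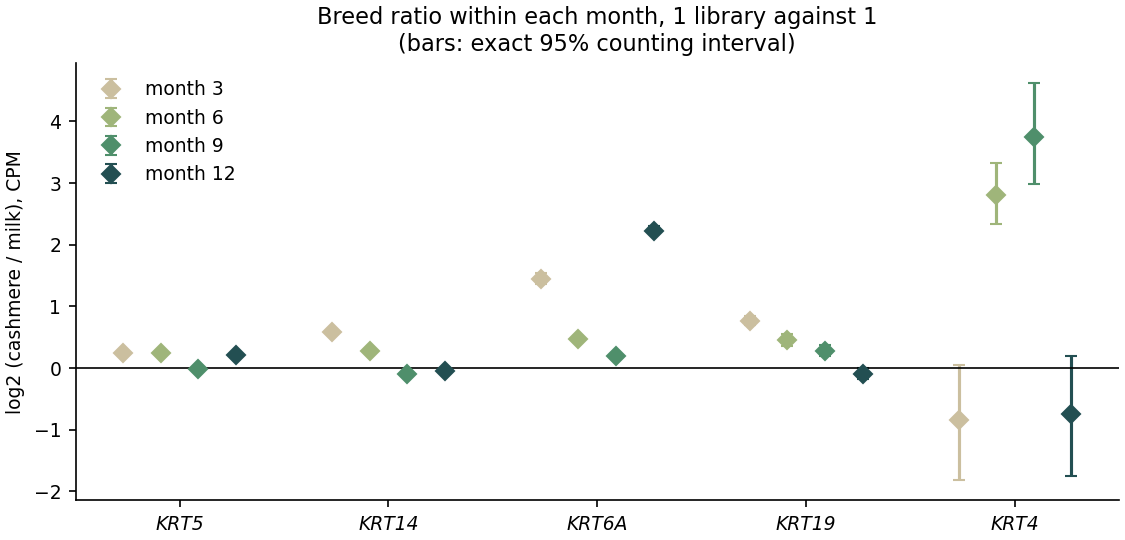
Log2 ratio of cashmere to milk goats in CPM for each keratin and month, 1 library against 1, where bars are exact 95% counting intervals and the line at 0 marks equal levels. KRT4 reaches 2.81 and 3.75 at months 6 and 9 but -0.85 and -0.74 at months 3 and 12, while KRT6A is highest at month 12 with 2.23.

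The course over the 4 months was tested next, in both breeds together. None of the 5 keratins passed in the joint test of month by edgeR's quasi-likelihood method, where 0% of all genes tested were called (0 genes, with 1894 at an unadjusted p under 0.05). The adjusted p was 0.342 for KRT6A (unadjusted p = 0.0157), 0.404 for KRT19, 0.621 for KRT4, 0.689 for KRT5 and 0.693 for KRT14. DESeq2 called KRT6A (adjusted p = 0.00352) and none of the other 4, with 4.04% of its genes called (536 genes). Without the month 12 cashmere library, edgeR called KRT6A as well (adjusted p = 0.0310, 8.22% of genes called), and without both month 12 libraries the adjusted p was 0.0431 (4.25% called).

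Month 9 against month 3 was the widest of the month contrasts for KRT6A. KRT6A was 2.21 ± 0.50 higher at month 9 on the log2 scale (SE, 4.63-fold, unadjusted p = 0.00268, adjusted p = 0.115), being 1.53 higher in cashmere goats and 2.78 higher in milk goats. In that contrast 0% of genes passed by edgeR, with 3329 at an unadjusted p under 0.05. DESeq2 called 2 of the 5 keratins, KRT6A at 2.23 (adjusted p = 0.000188) and KRT5 at 0.60 (adjusted p = 0.0359), with 8.35% of its genes called (1107 genes). In edgeR, KRT6A passed without the month 12 cashmere library (2.13, adjusted p = 0.0155, 14.1% of genes called) and without the month 12 milk library (2.14, adjusted p = 0.0189, 13.6% called). It also passed without both (2.13, adjusted p = 0.0158, 14.4% called).

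The other keratins differed less between months 3 and 9. KRT5 was 0.59 higher at month 9 (adjusted p = 0.344) and KRT14 0.56 higher (adjusted p = 0.366), with each breed above its month 3 level. KRT14 was at 0.30 without the month 3 milk library, 0.35 without the month 9 milk library and 0.85 without the month 3 cashmere library. KRT19 stood at -0.46 (adjusted p = 0.299), and at -0.16 or -0.72 without the month 3 cashmere or milk library. KRT4 stood at 1.32 (adjusted p = 0.501), a value without a stable sign: it was -0.60 and -0.06 without the cashmere library of month 9 or 3, and 2.48 and 2.91 without the milk library of those months. The median of the 5 keratins was 0.59 against 0 over all genes, and this median over all genes was -0.32 with library totals and -0.17 with FPKM. KRT19 was lower at month 6 than at month 3 in both breeds, by -0.90 in cashmere goats and -0.58 in milk goats (fitted -0.75, adjusted p = 0.693). In the other 5 month contrasts edgeR called 0 of the 5 keratins and 0% of all genes, with 905 to 1488 genes at an unadjusted p under 0.05. The single call in these under leave-out fits was KRT6A at month 12 against month 9 without the month 12 cashmere library (-1.90, adjusted p = 0.0402, 10.2% of genes called), which rests on the milk goats, where KRT6A was 2.12 lower on the log2 scale at month 12.

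Whether the course over the months differed between the breeds was asked with a 12-month cosine and sine for each breed. None of the 5 keratins passed by edgeR, and 0% of genes did (904 at an unadjusted p under 0.05). KRT4 was the nearest, at an unadjusted p of 0.000292 and an adjusted p of 0.152. The adjusted p was 0.620 for KRT6A, 0.890 for KRT19, 0.925 for KRT14 and 0.984 for KRT5. DESeq2 called KRT4 and no other of the 5 (adjusted p = 0.00024), in a fit that called 0.629% of its genes (80 genes). Without a filter on low counts edgeR called it too (adjusted p = 0.00396, 0.627% of genes called).

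Leaving out 1 library at a time left 1 residual degree of freedom. The breed that lost a library was then fitted exactly, and the residual came from the other breed alone. The 8 fits therefore share their residuals and are not separate checks of the full fit, which did not call KRT4. KRT4 passed in 7 of these 8 fits. Its adjusted p was 0.0252, 0.0420, 0.0349 and 0.0346 without the month 3, 6, 9 or 12 cashmere library, in fits that called 1.22%, 0.815%, 0.613% and 0.265% of genes. It was 0.00872, 0.0391 and 0.0456 without the month 6, 9 or 12 milk library, where 3.56%, 1.07% and 0.277% of genes were called. Without the month 3 milk library it was 0.0559, with 0.634% called. In cashmere goats KRT4 was 3.76 higher at month 6 than at month 3 on the log2 scale (counting interval 3.00 to 4.62), and in milk goats 0.10 higher (-0.57 to 0.77).

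Over all 8 libraries the basal pair varied least of the 5, near the median of abundant genes, and KRT6A and KRT4 varied most. The SD of log2 CPM was 0.26 for KRT5, 0.30 for KRT14, 0.38 for KRT19, 1.12 for KRT6A and 1.49 for KRT4. Among 2080 genes with a mean of at least 100 CPM the median SD was 0.31. Of these, 37.5% varied less than KRT5, 47.0% less than KRT14, 63.3% less than KRT19 and 95.3% less than KRT6A. KRT4, with a mean of 7.03 CPM, is not in that class, and low counts add to its spread.

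In the first gene set, the filament partners KRT5 and KRT14 stayed near parity per length. Their FPKM ratio was 0.964, 0.951, 1.12 and 1.19 in cashmere goats, in order of month, and 1.22, 0.964, 1.07 and 1.0 in milk goats. Neither breed was higher throughout. KRT6A as a share of KRT5 was 6.19%, 10.9%, 13.1% and 12.1% in cashmere goats and 2.68%, 9.32%, 11.2% and 2.98% in milk goats. Cashmere goats had the larger share of KRT6A in each month, and the month 3 and 12 milk libraries had the smallest.

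KRT19 as a share of KRT14 was 8.48%, 3.54%, 4.46% and 4.70% in cashmere goats and 7.44%, 3.11%, 3.46% and 4.87% in milk goats. Month 3 gave the largest share in both breeds. KRT1, the type II keratin that replaces KRT5 when a keratinocyte leaves the basal layer, stood to KRT5 as 1.17, 0.837, 0.487 and 0.623 in cashmere goats. In milk goats that ratio was 1.53, 1.18, 0.800 and 2.52. The ratio was higher in milk goats in every month and lowest at month 9 in both breeds. KRT10, the partner of KRT1, stood to KRT14 as 0.700 to 1.42 in cashmere goats and 0.968 to 2.08 in milk goats, also lowest at month 9.

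**Figure D3:**
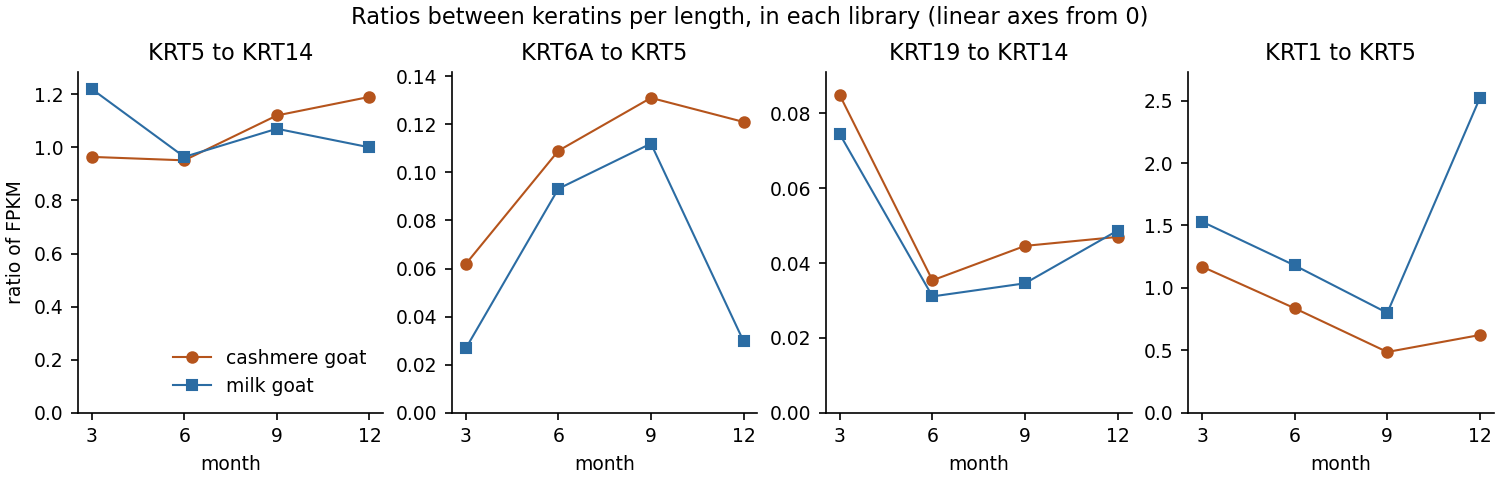
Ratio of FPKM between KRT5 and KRT14, KRT6A and KRT5, KRT19 and KRT14, and KRT1 and KRT5 against month, on linear axes from 0 with 1 point per library. KRT5 to KRT14 stays between 0.951 and 1.22, while KRT1 to KRT5 runs from 0.487 in cashmere goats at month 9 to 2.52 in milk goats at month 12.

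Together the 5 keratins took 1.50%, 1.73%, 1.75% and 1.75% of all reads in cashmere goats and 1.07%, 1.43%, 1.39% and 1.50% in milk goats. The highest share was 1.17 times the lowest in the cashmere breed and 1.40 times in the milk breed. Counting error was small beside this, with a 95% Clopper-Pearson interval of 1.74% to 1.76% at month 9 in cashmere goats. For the 4 inner root sheath keratins the same ratio was 2.22 and 14.1, for the 8 hair shaft keratins 2.33 and 27.1, and for the 7 suprabasal keratins 1.99 and 2.70. Only 4 of 8 listed inner root sheath keratins and 8 of 17 listed hair shaft keratins were matched by symbol, so their shares leave out the others. The milk goat library of month 12 had the lowest share of inner root sheath keratins (0.0444%) and of hair shaft keratins (0.00675%), and the highest of suprabasal keratins (3.91%), whereas its share of the 5 keratins was the highest among milk goats.

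**Figure D4:**
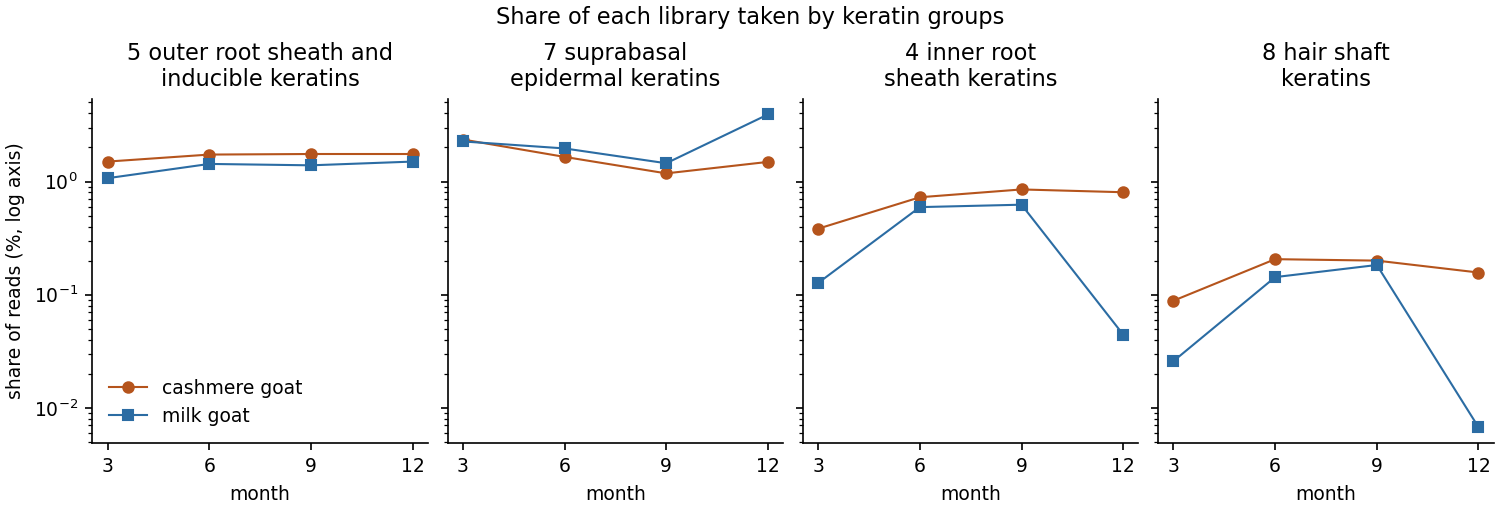
Share of each library's reads (percent, log axis) taken by the 5 outer root sheath and inducible keratins and by the suprabasal, inner root sheath and hair shaft keratins, against month, with 1 point per library. The 5 keratins lie between 1.07% and 1.75% in all 8 libraries. The 8 hair shaft keratins matched by symbol, of 17 listed, are at 0.00675% in milk goats at month 12. Of the inner root sheath keratins 4 of 8 listed were matched.

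The course of KRT6A was close to that of keratins from the inner layers of the growing follicle. Over the 8 libraries the log2 CPM of KRT6A had a Pearson r of 0.90 with KRT25, of the inner root sheath (Spearman 0.98). Without the 2 libraries farthest from the median of KRT6A, r was 0.97. With KRT35, of the hair shaft, r was 0.91 (Spearman 0.95, 0.92 without these). With KRT14 it was 0.77 (0.60, 0.77 without these). With KRT5 it was 0.83 (Spearman 0.83), and 0.58 without the 2 libraries farthest from the median of KRT5. That is not the same pair of libraries, so the 0.58 cannot be set beside the other reduced values. KRT6A was 14.5% to 20.3% of the FPKM of KRT25 in 7 libraries and 63.6% in milk goats at month 12. KRT5 and KRT14 had r = 0.88 (Spearman 0.76, 0.55 without the 2 libraries farthest from the median of KRT5). KRT4 and KRT19 had r between -0.26 and 0.29 with the others of the 5, and these values moved widely without the 2 farthest libraries. KRT5 and KRT19 went from -0.17 to 0.61 (Spearman -0.19), and KRT4 and KRT6A from 0.29 to -0.64 (Spearman 0.10). In both pairs the 2 libraries left out were those farthest from the median of the keratin named first. These correlations are descriptions over 8 libraries that share breeds, months and scaling.

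The genes with the pattern most like each keratin were sought among 10798 named genes with a mean of at least 5 CPM, by Pearson r of log2 CPM over the 8 libraries. For KRT6A they were MARK4, a microtubule affinity kinase (r = 0.995), JUNB, an AP-1 transcription factor (0.994), and DNASE2, the lysosomal nuclease (0.994). For KRT5 they were BZW2 (0.988), PSMC3, a proteasome subunit (0.986), and CFL1, the actin-severing protein cofilin (0.981). KRT14 was followed most closely by NPM3 (0.982), SCAMP4 (0.977) and PLEK2 (0.975). The likest genes were less close for KRT4, with ERI3 (0.939), SUMO2 (0.916) and WRB (0.896), and for KRT19, with PAXIP1 (0.936), SLC44A2 (0.920) and RASEF (0.901). Their amplitudes differed: JUNB ran from 65.8 to 215 CPM and DNASE2 from 11.9 to 25.0 CPM, while KRT6A ran from 152 to 1200 CPM.

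Other keratin groups were read beside these 5, by their breed difference. In none of the lists below did a gene pass an adjusted p of 0.05, where 4.79% of all genes did. Among the other keratins of stratified epithelium and companion layer, 2 of 10 could be tested: KRT23 at -0.32 (adjusted p = 0.309) and KRT79, of the upper follicle and sebaceous duct, at 0.05 (adjusted p = 0.908). For the 7 suprabasal keratins the median breed difference was -0.14, with KRT1 at -0.73 (adjusted p = 0.235), KRT10 at -0.48 (0.364) and KRT2 at 0.68 (0.119). Of the 4 simple epithelial keratins 3 were tested, all above 0 with a median of 0.43, and KRT8 had 0.55 ± 0.12 (SE, adjusted p = 0.0519), KRT7 0.43 (0.414) and KRT18 0.23 (0.762). The 4 inner root sheath keratins tested, of 8 listed, had a median of 1.35, with KRT27 at 1.58 (0.187) and KRT74 at 1.41 (0.170). The 8 hair shaft keratins tested, of 17 listed, had a median of 1.44, with KRT39 at 2.10 (0.152) and KRT35 at 1.90 (0.134). All 12 of these hair keratins were above 0, as were all 5 outer root sheath and inducible keratins, where 7440 of the 14085 tested genes were.

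Genes that anchor the basal keratinocyte to its basement membrane, where KRT5 and KRT14 filaments end in hemidesmosomes, had a median of -0.29, with 10 of 14 below 0 and 0 called. COL17A1, the hemidesmosomal collagen, stood at -0.79 ± 0.24 (SE, adjusted p = 0.0963) and COL7A1, of the anchoring fibrils, at -0.71 ± 0.18 (adjusted p = 0.0710). At month 9 against month 3 only 1 of the 14 was above 0, with a median of -0.34, where KRT5 and KRT14 were at 0.59 and 0.56. For the 12 desmosomal and filament-binding proteins the breed median was 0.07 and 0 were called. JUP, the desmosomal and junctional plakoglobin, was at 0.60 ± 0.16 (adjusted p = 0.0719) and TCHP, a keratin-binding protein, at -0.55 (adjusted p = 0.173). Of these 12, 11 were above 0 at month 9 against month 3, with a median of 0.45.

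Regulators of keratinocyte genes had a breed median of 0.17 over 22 genes, with 17 above 0 and 0 called. JUNB was at 0.70 ± 0.19 (SE, adjusted p = 0.0812) and PTCH1, the hedgehog receptor, at 0.65 (adjusted p = 0.254). Genes induced in epidermis by wounding or inflammation, the setting in which KRT6A is best known, had a median of 0.27 over the 14 of 28 that could be tested, with 11 above 0 and 0 called. LCN2, an antimicrobial lipocalin, was at 1.86 (adjusted p = 0.208) and IVL, the cornified envelope protein involucrin, at 0.88 (adjusted p = 0.492). At month 9 against month 3 their median was 0.66, with 12 of 14 above 0 and 0 called. All 10 genes of dividing cells were above 0 in both comparisons, with medians of 0.53 between the breeds and 1.01 between months 9 and 3, and BIRC5 at 0.87 ± 0.21 (adjusted p = 0.0607) and AURKB at 0.95 ± 0.29 (adjusted p = 0.0970) between the breeds. Over all tested genes these medians were 0.03 and 0.

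The 5 keratins lie in the type II and type I keratin clusters, on chromosomes 5 (KRT4, KRT5 and KRT6A) and 19 (KRT14 and KRT19). By gene order in the RefSeq table of the ARS1.2 assembly, KRT5 and KRT6A are direct neighbours, KRT4 lies between KRT79 and KRT3, and KRT9 lies next to both KRT14 and KRT19. The 2 neighbours KRT5 and KRT6A had the r of 0.83 given above. On its other side, KRT6A had r = 0.89 with LOC108635997, and KRT5 had r = 0.55 with LOC102177231. KRT14 had r = 0.76 with LOC102180424, and KRT19 had r = 0.05 with LOC102179515. KRT79 was at 577 and 398 CPM in the month 6 and 9 cashmere libraries, in which KRT4 was high, and at 386 to 799 CPM in the other 6. KRT9 had r = 0.51 with KRT14 and -0.39 with KRT19.

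A second count table with another gene set named KRT4 and KRT14 among the 8 symbols, and 7.45% of its genes differed between the breeds (1117 of 14994 tested). In this other count of the same libraries, KRT4 was also highest in the month 6 and 9 cashmere libraries, at 45.0 and 40.2 CPM. It stood at 12.9 to 22.9 CPM in the other 6 (breed difference 0.64 ± 0.34, adjusted p = 0.249). The milk libraries of months 6 and 9 were at 16.4 and 15 CPM, a smaller gap than the 7.02-fold and 13.5-fold of the first gene set. The size of the KRT4 difference thus depended on the gene set. KRT14 had a breed difference of 0.39 ± 0.25 (adjusted p = 0.344), and a gene annotated there as keratin 14-like had 0.22 ± 0.27 (adjusted p = 0.621). The keratin 14-like gene, at 6030 to 12400 CPM, was above KRT14, at 2380 to 5910 CPM, in every library. The parity of KRT5 and KRT14 was not examined in this gene set. KRT13, the mucosal partner of KRT4, was at 62.3 to 80.4 CPM in cashmere goats and 76.7 to 161 CPM in milk goats (-0.52 ± 0.18, adjusted p = 0.110). KRT16, the type I keratin induced together with KRT6, ran from 8.37 to 14.5 CPM in cashmere goats and from 5.55 to 13.0 CPM in milk goats (0.25 ± 0.20, adjusted p = 0.445). A gene annotated as keratin 75-like stood at 615, 1310, 1320 and 1070 CPM in cashmere goats, in order of month. In milk goats it was at 301, 1010, 1260 and 289 CPM (0.83 ± 0.31, adjusted p = 0.124). Like KRT6A it was highest at month 9 in both breeds, but the full order of months differed. Its month 6 level was above that of month 12 in cashmere goats, and its lowest milk level was at month 12. Near-identical keratin copies can share reads. The counts of KRT6A in the first gene set and of KRT14 in either set are uncertain to that extent.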

How the data were processed

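Polyadenylated RNA from goat skin was made into directional libraries and sequenced in paired ends, per the labels. The submitters' processing notes name Bowtie2; its role, its version, the counting program and the build are not given in the sources used. Coordinates are therefore left out. The authors deposited raw read counts per gene (18815 genes), FPKM of the same genes, and a second table of raw counts (20780 genes). Among the columns of the count and FPKM tables of the first set, 4 carry a Chinese word for the fine undercoat and 4 are named milk; the former were taken as cashmere goats. Each of the 8 columns matched best its namesake in the second count table over 12073 shared symbols.

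After filterByExpr on breed and TMM scaling, edgeR 4.0.16 (R 4.3.3) tested the counts by quasi-likelihood F tests on month and breed (3 residual degrees of freedom) or breed by a 12-month cosine and sine (2), with Benjamini-Hochberg adjustment over all genes tested and a threshold of 0.05. Log2 CPM used a prior count of 2. Ratios within a month are 1 library against 1, with exact 95% Clopper-Pearson intervals that cover counting error only, since PCR reads are not independent molecules. The code was tested on simulated data. Alternatives were DESeq2 1.42.0, limma 3.58.1 on log2(FPKM + 1) or + 0.1, other scalings and filters (none, or a mean of 50 reads), a model without month, the second table and leaving out each library. Leaving out month 12, or months 3 and 12, was chosen after seeing the data.

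The members and lists were chosen with earlier results of these data known. All members were named. From each list the 4 largest breed changes past the threshold, or else the 2 largest with a mean of at least 5 CPM, were named, with the filament partners of members. For likeness, the 3 genes with the highest Pearson r were named.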

Additional observations from a re-analysis of the deposited data

Results flagged for a closer look

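In 6 cases a keratin went one way between a pair of months in cashmere goats and the other way in milk goats, with counting intervals clear of 0 in both. Each compares 1 library with 1, so the difference between the breeds was not tested for the pair of months itself. KRT4 was 3.43 higher at month 9 than at month 3 in cashmere goats on the log2 scale, and 1.17 lower in milk goats (-1.17). From month 9 to month 12, KRT4 went by -3.33 in cashmere goats and by 1.16 in milk goats. For KRT4 the breed by season test gave an adjusted p of 0.152 by edgeR.

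KRT6A stood 0.28 higher at month 12 than at month 6 in cashmere goats, against -1.48 in milk goats (breed by season, adjusted p = 0.620). KRT14 had small opposite differences, at month 9 against month 6 of -0.12 in cashmere goats and 0.23 in milk goats, and at month 12 against month 6 of -0.19 and 0.11 (adjusted p = 0.925). KRT19 was at -0.68 in cashmere goats and 0.18 in milk goats for month 12 against month 3 (adjusted p = 0.890).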

How the results depend on the processing

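The breed effect of each of the 5 keratins kept its sign under every alternative run: KRT6A ranged from 0.33 to 1.40, KRT4 from 0.61 to 3.19, KRT19 from 0.20 to 0.57, KRT5 from 0.11 to 0.38 and KRT14 from 0.03 to 0.40. Genes called between the breeds numbered 1691 by DESeq2, 1374 and 1161 by limma with pseudocounts of 1 and 0.1, 346 without month in the model, 1117 in the second table, 1333 without months 3 and 12, and 0 to 869 when 1 library was left out. Of the 5 keratins, 1 was called between the breeds by DESeq2, by both limma fits and without months 3 and 12. In that last set it was KRT4, and the set keeps the cashmere libraries in which KRT4 was high. In the month effect 1 was called by DESeq2 and without both month 12 libraries, and 0 to 1 with 1 library left out. Over the 6 month contrasts 2 calls were made by DESeq2 and 0 to 2 with 1 library left out. Without both month 12 libraries only the contrasts among months 3, 6 and 9 could be run, with 1 call. In the breed by season test 1 was called by DESeq2 and without a filter, and 0 to 1 with 1 library left out. Ratios within 1 month changed sign in 6 cases: at month 9 KRT5 (0.34 with library totals, 0.43 from FPKM) and KRT14 (0.27 and 0.37), and at month 12 KRT14 (0.16) and KRT19 (0.11), both from FPKM. Library totals and FPKM moved the median breed difference over all genes to 0.14 and 0.16. The season model could not be fitted without both libraries of month 12. The model of month and breed sets the breeds side by side within each month. Month 9 against month 3 changed sign in 2 alternatives for KRT4 and in 0 for the other 4 keratins. Depth limits only KRT4, with 14 to 43 reads in 6 libraries.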
